A study of Mus musculus with 37 samples.

Results

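The open reading frames (ORFs) described here began upstream of the longest ORF of their gene, ran across its start codon and read another frame. They came from 1 list of ORFs called in mouse dendritic cells, which present antigen and were cultured here from bone marrow. Transcripts of 1 gene name formed a family, and the ORF with the most codons in a family was taken as its main ORF. An ORF was a member when it began before the main start, ended at or after it, read a frame other than that of the main ORF and had the main start base within its own exon blocks. The rule found 650 members among 22367 listed ORFs (2.91%, 95% Clopper-Pearson interval 2.69 to 3.13). They lay in 522 of 10418 families (5.01%) and in 504 of 10182 named genes (4.95%). The members are called overlapping ORFs.

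The list was made from ribosome footprints, the RNA fragments that a translating ribosome shields from nuclease, of C57BL/6J mice aged 6 to 8 weeks. The 37 libraries comprised 16 of cells given lipopolysaccharide (LPS, a bacterial activator of these cells, 100 ng/mL, 0.5 to 12 h) under cycloheximide, 8 of mock-treated and 2 of naive cells under the same drug. They also comprised 8 LPS libraries and 1 naive library with no inhibitor, and 1 each with harringtonine (1 ug/mL, 5 min) and lactimidomycin (50 ug/mL, 30 min), both of mixed LPS times. Cycloheximide (100 ug/mL, 1 min) stops elongating ribosomes, and the last 2 drugs hold ribosomes near start codons. The labels name the same list for all libraries, and it has no value per library, so treatments and times were not compared, depth is unknown and no ORF has a replicate. ORFs and genes are not replicates of an experiment, so the values below are a description without tests. Of genes that mark or serve dendritic cells, 32 of 36 had a listed ORF, against 25 of 27 granulocyte and macrophage markers and 8 of 26 markers of lymphocytes, mast cells and fibroblasts. A listed ORF shows that the gene passed the authors' calling, not its level.

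A ribosome that scans from the cap meets upstream start codons before the main one. After a short upstream ORF that ends in the leader it can resume scanning and initiate again further on. An ORF that overlaps the main start releases the ribosome past that start, and such ORFs are known as strong barriers to the main frame, as in the stress-regulated Atf4. Where a stop codon shares bases with the main start, termination and the next start fall on almost the same position. In genes with a described second product, such an overlapping frame can itself encode a protein.

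Overlaps were mostly short, and 1 length stood out. The overlap, counted along the member's own transcript from the first base of the main start to the last base of the member's stop, had a median of 47 bases with quartiles of 14 and 104. An overlap of 4 bases occurred in 77 members (11.8%, interval 9.46 to 14.6), more often than any other length. The next most frequent lengths were 8 bases with 28 members and 20 bases with 21 members. An overlap of 1 base occurred in 10 members, and overlaps of 2 or 5 bases in none of 650. At most 10 bases overlapped in 132 members (20.3%), and more than 100 bases in 171 (26.3%). A 4-base overlap places the stop codon 1 base into the main start codon, and with an ATG there the only possible stop is TGA. The ATG itself supplies the T and G of that stop, so only its last base is free. How far this accounts for the peak at 4 bases was not tested, and the peak is not read as a trait of the members. No stop codon fits an overlap of 2 or 5 bases with an ATG, so their absence there is fixed in advance. In the frame of those lengths, 8 bases is then the shortest possible overlap. Start codons were not read here, so how many main ORFs begin with ATG is not given.

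**Figure D1:**
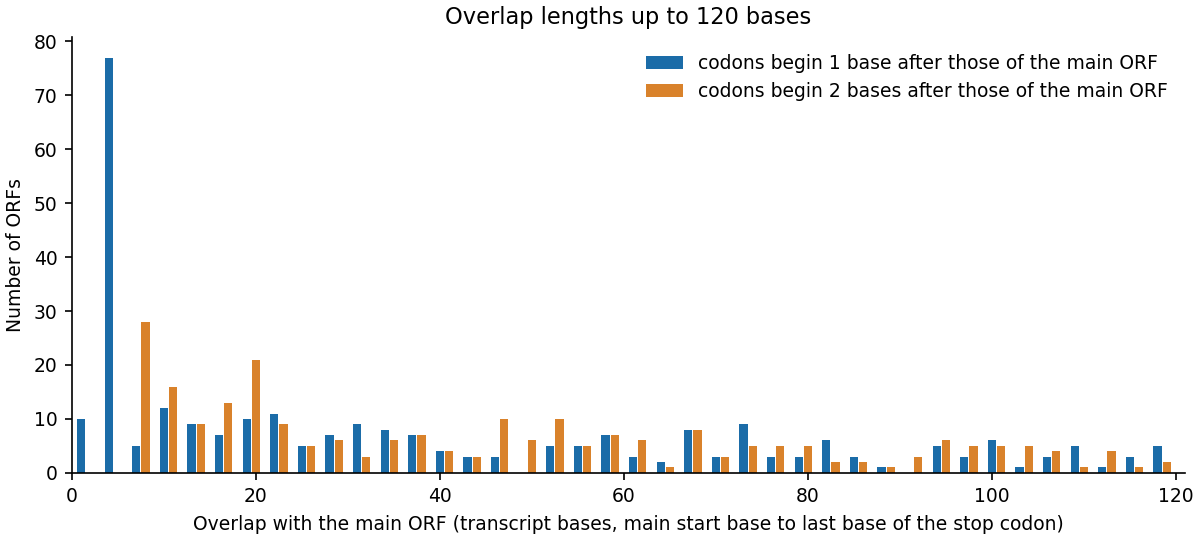
Number of overlapping ORFs (y axis) at each overlap length up to 120 bases (x axis, transcript bases), coloured by frame. The bar at 4 bases holds 77 ORFs and the bar at 8 bases 28. The lengths of 2 and 5 bases, which an ATG main start does not allow, hold none.

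Both possible frames were used in similar numbers. The codons of 339 members (52.2%, interval 48.2 to 56.1) began 1 base after those of the main ORF, and those of 311 members (47.8%) began 2 bases after. The 4-base overlaps made up 22.7% of the first frame, and the 8-base overlaps 9% of the second, each frame having only certain lengths. Members of the first frame had a median of 37 codons and a median score of 741, against 38 codons and 760 in the second. The score is the authors' own whole number per ORF, from 500 to 991 in the list, and is used here only to describe and rank.

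The members with a 4-base overlap included regulators of inflammation and cell death, all on the mm9 build with positions counted from 1. Zc3h12a, the endonuclease regnase-1 that degrades cytokine mRNAs, had a 24-codon ORF that scored 991 and lay on the minus strand of chromosome 4, 124804289 to 124805047. It began 71 bases before the main start at 124804292 and contained 1 intron, while the 596-codon main ORF scored 538. A second in-frame start gave 580 codons with a score of 969, 16 codons further in, so the 24-codon ORF ended before it. Birc3, an inhibitor of apoptosis and ubiquitin ligase of NF-kB signalling, had a 20-codon ORF that scored 987, on chromosome 9, 7861312 to 7861374, minus strand. Its 602-codon main ORF scored 728, and an in-frame start 2 codons further in scored 947, again past the end of the overlapping ORF. In both genes the overlap thus reached the longest listed form and not the best-scoring one.

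Other members joined stop to start in the same way. The chemokine Ccl5 had an 11-codon ORF at chromosome 11, 83343960 to 83343995, with a score of 991, equal to that of its 91-codon main ORF. Its listed transcript had a leader of 5324 bases. Shc1, an adaptor of growth factor receptors, had 5 codons with a score of 982, and Tifab, a regulator of TRAF6 signalling, had 87 codons with a score of 980. The GTPase Nras had 32 codons with a score of 865 against 980 for its 189-codon main ORF. Socs2, a feedback inhibitor of cytokine receptors, had 2 starts with 1 stop, of 113 codons with a score of 977 and of 5 codons with 534, against 684 for the 198-codon main ORF and 767 for an in-frame start 39 codons further in. Scores among the 87 members with an overlap of 1 to 4 bases ran from 504 to 991 with a median of 717, so the short overlap did not go with a uniformly high score. The median over all members was 743.

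The 1-base overlaps, in which the last base of the stop is the first base of the main start, were few and mixed. Pcsk7, a proprotein convertase, had 21 codons with a score of 969 against 767 for its 770-codon main ORF. Trim13, a ubiquitin ligase, had a 22-codon ORF that scored 816 and a 5-codon ORF that scored 549, below the 968 of its main ORF. Hyi, a transcribed pseudogene in the naming table, had 2 ORFs of 97 and 69 codons that began at the same base and both scored 952.

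**Figure D2:**
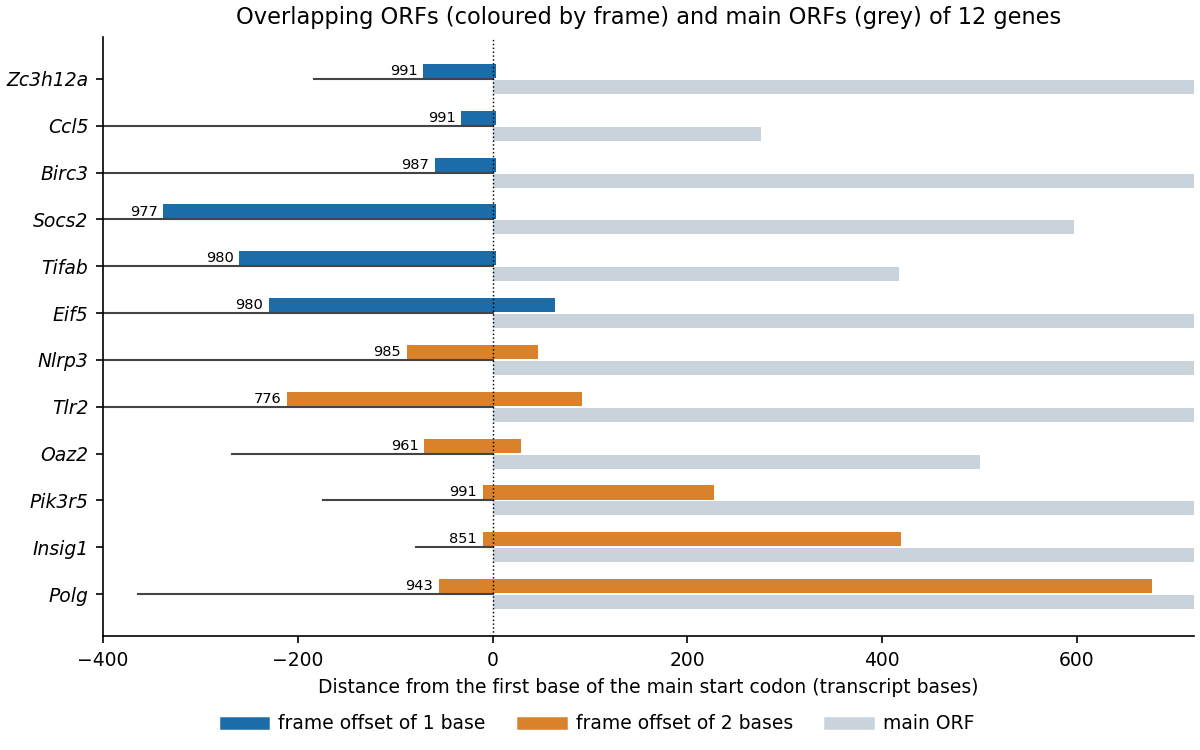
Overlapping ORFs of 12 genes drawn to scale against the first base of the main start (x axis, transcript bases), in blue or orange by frame, with the authors' score at their left end and the main ORF in grey. Leaders (thin lines) are drawn to 400 bases and main ORFs to the axis end at 720 bases. The ORFs of Zc3h12a, Ccl5, Birc3, Socs2 and Tifab end 4 bases into the main ORF, and that of Polg reaches 677 bases into it.

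At the other end of the range were long second frames. Polg, the catalytic subunit of the mitochondrial DNA polymerase, held the longest member and the longest overlap. Its 243-codon ORF at chromosome 7, 86606711 to 86610152, minus strand, began 55 bases before the main start and covered 677 bases of the 1217-codon main ORF (18.5%). It scored 943 against 786 for the main ORF. The Polg mRNA is known to encode a second protein in another frame from an upstream non-AUG start. It was the only one of 27 listed genes with described alternative or overlapping frames that had a member (3.7%, interval 0.0937 to 19), against 4.95% of all named genes. The next longest overlap was in Insig1, which retains sterol-sensing complexes in the endoplasmic reticulum: 142 codons began 10 bases before the main start and covered 419 bases, or 51.7%, of a 269-codon main ORF, with scores of 851 and 826. Thap7, with 121 codons and a score of 952, overlapped by 355 bases, Myo9b, an unconventional myosin, by 344, and the adenosine receptor Adora2a by 340 bases. The Adora2a ORF of 134 codons scored 833 against 546 for the main ORF.

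In all, 62 members (9.54%) had 100 codons or more. Several of the longest had low scores. Tatdn2 had 228 codons with a score of 536, Arhgap27 158 codons with 534 and Fbxo42 157 codons with 509, while their main ORFs scored 845, 725 and 979. The share of the main ORF that was overlapped, counted over bases in its own exons, had a median of 3.59% and was highest, at 71%, in a family with no matched symbol, TCONS_00040445, whose main ORF had 76 codons. Among named genes it reached 58.5% in Sft2d1 and in Ddx4_2, a family matched to the DEAD box helicase Ddx4 after dropping a suffix. In Ddx4_2, a 112-codon ORF that scored 793 overlapped a main ORF of only 186 codons, behind a leader of 1598 bases. In Tmem170b, 128 codons with a score of 902 ran 302 bases past the start of a 132-codon main ORF, and 228 of those bases (57.1% of the main ORF) lay in its exons. B2m, the light chain of MHC class I, had 2 ORFs of 70 codons over 46.4% of its main ORF, with scores of 504 and 530, near the lowest in the list, against 990 for the main ORF.

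Most members began close to the main start. The distance from their start to the main start had a median of 50 bases with quartiles of 23 and 95, and 147 members (22.6%) began at most 20 bases before it. The shortest distance was 4 bases, in 9 members, and 44 members (6.77%) began over 200 bases before. At the far end, Msl1, a subunit of a histone acetyltransferase complex, had a 213-codon ORF that began 638 bases before the main start and overlapped it by 4 bases. In Pdgfb, a growth factor, 214 codons began 565 bases before and overlapped by 80.

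The 3 genes of the Prrc2 family, large proteins with a BAT2 domain, each had an overlapping ORF at the same place. These genes were noted after their values were seen. In Prrc2a, on chromosome 17, the ORF spanned 35299858 to 35299944 and had 28 codons with a score of 927. In Prrc2b, on chromosome 2, it spanned 32038016 to 32038105 and had 29 codons with a score of 901. In Prrc2c, on chromosome 1, it spanned 164654876 to 164654962 and had 28 codons with a score of 832. These 3 ORFs began 16 bases before the main start, lay in the frame 2 bases after that of the main ORF, held no intron and overlapped by 71, 74 and 71 bases. Prrc2c had 2 further members elsewhere, of 142 and 140 codons, which both scored 561, began 200 bases before the main start and lay in the other frame. The main ORFs had 2158, 2172 and 2864 codons and scored 986, 979 and 927. A start 16 bases upstream occurred in 14 of the 650 members. Among 47 sets of genes with members whose symbols share a stem, the Prrc2 set was the only one in which all genes with a member shared a start distance and frame. Related genes whose symbols share no stem were not compared, so the Prrc2 set is not shown to be unique.

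Of 10 listed genes of polyamine synthesis and antizyme, Oaz2 and Sms had 1 member each (20%, interval 2.52 to 55.6), an interval that includes the 4.95% of all named genes. Antizymes inhibit polyamine synthesis, and ribosomes are known to make them by shifting frame by 1 base from a short first ORF into a longer one. In Oaz2, an ORF of 32 codons with a score of 961 at chromosome 9, 65524553 to 65534081, overlapped a 166-codon main ORF with a score of 836 by 29 bases. Its codons began 2 bases after those of the main ORF, so the main frame lies 1 base after that of the short ORF. Whether these are the 2 frames of the known shift was not tested. Oaz1 was listed with 3 ORFs ending at a single stop, 82, 68 and 67 codons long, and so had no overlapping ORF by the rule. Sms, spermine synthase, had 30 codons with a score of 764, 23 bases before its main start.

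Overlapping ORFs scored lower than main ORFs as a group, and a minority outscored their own. Their scores had a median of 743 with quartiles of 608 and 848, against medians of 926 for main ORFs, 776 for upstream ORFs, which lie wholly before it, and 847 for all ORFs listed. A score of 900 or more was reached by 110 members (16.9%, interval 14.1 to 20), against 41.2% of all ORFs listed and 24.9% of upstream ORFs. The members' score was above that of their own main ORF in 185 of 650 (28.5%, interval 25 to 32.1), equal in 6 and lower in the rest. Over all ORFs that are not main, the share above the own main ORF was 27.3%, and over upstream ORFs it was 34.1%. The median difference from the own main ORF was -114.

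**Figure D3:**
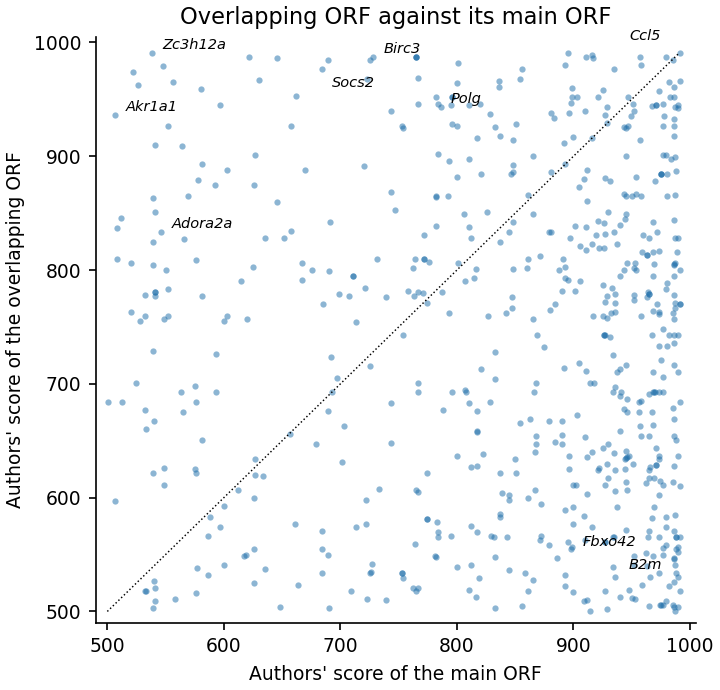
Authors' score of each overlapping ORF (y axis) against that of its main ORF (x axis), 650 points, with the dotted line where both are equal. Points above the line, such as Zc3h12a and Birc3, are the 185 members that outscored their main ORF, and 306 of the 650 points lie at main scores of 900 or more.

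The main ORFs of the 522 families had a median score of 889, against 927 in the other families. Listed scores ran from 500 to 991, and 23.1% of all members scored 500 to 599 and 16.9% scored 900 or more. A low main score is therefore outscored by most members and a high one by few, whatever the pairing. Where the main ORF scored 500 to 599, 58 of 71 members (81.7%) outscored it. Where it scored 900 or more, 15 of 306 members (4.9%) did. Among those 15 were Eif5, the activator of GTP hydrolysis on the eIF2 initiation complex, with 97 codons and a score of 980 against 958. Others were Cux1, a homeodomain factor, with 18 codons and 989 against 916, and Edem1, a factor that removes misfolded glycoproteins, with 53 codons and 987 against 911. Nlrp3, the sensor of an inflammasome, had 44 codons and scored 985, equal to its 1033-codon main ORF.

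In some families the longest ORF was not the best-scoring form. In 66 families with 81 members, a listed start inside the main ORF, in frame and with the same stop, scored above the main ORF. Of those 81 members, 44 ended before the best inner start and 37 reached it. Of the 37 members that scored at least 250 above their main ORF, 17 lay in such families, against 81 of all 650 members (12.5%). Such a lead needs a low main score, which an inner start also outscores more easily, so no link is drawn from these shares. In Akr1a1, an aldehyde reductase, the 338-codon main ORF scored 507 and an inner start of 325 codons scored 954. There an overlapping ORF of 101 codons with a score of 936 covered 113 bases and reached the inner start. With the best-scoring start of the same stop taken as the main start in every family, 630 ORFs overlapped it, of which 604 were among the 650.

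Among the 522 families, 134 (25.7%, interval 22 to 29.6) listed an in-frame start inside the main ORF, against 21.4% of other families and 15.9% of families with upstream but no overlapping ORFs. In 71 of the 134, every such start lay after the end of the longest overlap. An upstream ORF was listed in 136 of the 522 families (26.1%, interval 22.3 to 30), against 15.8% of other families. By the rule each of the 522 families lists at least 1 ORF beyond the main one, which other families need not do. The families were not matched for the number of ORFs listed, so no link is drawn from these shares. In those 136 families, the best upstream ORF scored above the best overlapping ORF in 89 and below it in 47. The numbers of each kind were not matched, and the best of more ORFs tends to score higher. Akt2 had 1 overlapping and 7 upstream ORFs, and Thap7 had 3 and 1.

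Compared with the 2857 upstream ORFs, overlapping ORFs were longer and began nearer to the main start, and an ORF must reach that start to be a member. They had a median of 37 codons with quartiles of 21 and 67, against 16 codons with quartiles of 7 and 31. ORFs of at most 9 codons made up 7.08% of overlapping and 33.5% of upstream ORFs. The median start distance was 50 bases, against 183 bases for upstream ORFs on a transcript with the main start. The codon counts also include upstream ORFs that are not on such a transcript. Upstream ORFs had up to 960 codons and began up to 34842 bases before the main start, so they are not all short ORFs of a leader. The median leader up to the main start was 280 bases for overlapping and 494 for upstream ORFs. Overlapping ORFs were 18.5% of both kinds together.

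**Figure D4:**
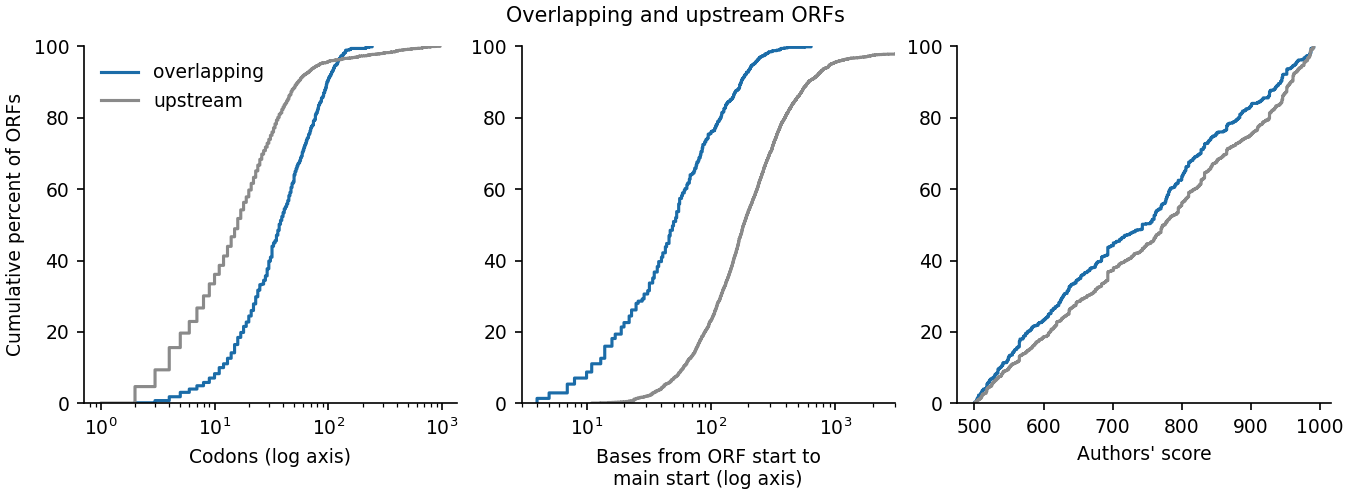
Cumulative percent of ORFs (y axes) by codons, by bases from ORF start to main start and by authors' score (x axes, the first 2 logarithmic), for 650 overlapping ORFs in blue and 2857 upstream ORFs in grey. The distance panel holds the 2674 upstream ORFs on a transcript with the main start and its axis is cut at the right. The overlapping ORFs lie to the right for codons and to the left for distance and score.

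Most genes had a single overlapping ORF, and those with several mostly had starts that share a stop. Of the 522 families, 418 had 1 member, 83 had 2 and 21 had 3 or more. The 650 members had 629 distinct starts and 540 distinct stops. At 85 stops, several starts were listed, and the innermost start scored higher than the outermost in 45 and lower in 40. Pik3cg, the catalytic subunit of the gamma isoform of phosphoinositide 3-kinase, had 3 starts with 24, 22 and 14 codons and scores of 522, 893 and 589, the middle one equal to the 893 of its main ORF. Pik3r5, the regulatory subunit of the same kinase, had a single 78-codon ORF with a score of 991 that began 10 bases before the main start and overlapped by 227 bases. Its main ORF scored 895. Ube2f, a NEDD8-conjugating enzyme, had 4 ORFs with scores from 518 to 987, and Slfn8, of an interferon-induced family, had 4 with scores from 518 to 770. In Stk16, a kinase, starts of 116, 77 and 40 codons scored 869, 683 and 940. Rps12 was the only cytosolic ribosomal protein gene with members, with 3 ORFs that share a stop, of 18 to 30 codons and scores of 557 to 743.

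The transcripts that carried the members were mostly spliced downstream of them. In 277 members (42.6%) the ORF held no intron, in 280 it held 1 and in 93 it held 2 or more. At least 1 exon junction lay after the stop in 597 members (91.8%), and the last lay more than 55 bases after it in 589 (90.6%), the arrangement in which a stop is known to be able to trigger decay of an mRNA. Decay was not measured. The junction shares were not counted for upstream ORFs or for all ORFs, so they are not read as a trait of the members. In 309 members the exon blocks were identical to those listed for the main ORF, and in 612 the member's start base lay in an exon of the main ORF's listed transcript. Leaders over 1000 bases occurred in 68 members (10.5%), among them Akt2 with 12513 bases and Birc3 with 4800. In 10 members, the overlap was not fully within the exons of the main ORF.

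Of the 26 gene groups examined, none held more than 12 genes with a member, and the shares ran from 0 to 20% against 4.95% of all named genes. The interval included 4.95% in every group but the oxidative phosphorylation subunits. With 26 intervals and no correction for their number, that exception is not read as a result. In immune signalling, 1 of 24 Toll-like receptors and adaptors had a member: Tlr2, the receptor of bacterial lipoproteins, with 100 codons, a score of 776 and an overlap of 92 bases. Of 29 NF-kB pathway genes, 1 had members: Ikbkg, the regulatory subunit of the IkB kinase, with a 32-codon ORF that scored 795 and a 31-codon ORF that scored 659, against 940. Syk, the kinase of immunoreceptors, had 29 codons with a score of 761 against 973. Of 34 cytokines and chemokines, Ccl5 and Cxcl16 had a member, the latter of 54 codons with a score of 625. None of 36 interferon-stimulated genes (interval 0 to 9.74%) and none of 26 stress response genes (0 to 13.2%) had one. These groups are partial. Slfn8, of an interferon-induced family, and Edem1, which removes misfolded glycoproteins, lie outside them and had members. Of 32 dendritic cell and antigen presentation genes, B2m was the only one with a member.

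Among regulators of mRNA decay, Zc3h12a and its relative Zc3h12d had members, 2 of 15 genes (13.3%, interval 1.66 to 40.5). The Zc3h12d ORF had 50 codons, a score of 607 and an overlap of 86 bases, unlike the 4 bases of Zc3h12a. Of 27 cell death regulators, Birc3 and Mlkl, the effector of necroptosis, had one, and of 45 MAPK and PI3K pathway kinases Akt2 and Pik3cg did. Cdk6, a cell cycle kinase, had 9 codons with a score of 952, the only one of 41 cell cycle genes with a member.

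In the housekeeping groups members were few. They occurred in 1 of 81 cytosolic ribosomal protein genes (1.23%, interval 0.0313 to 6.69), 1 of 76 mitochondrial ones, none of 47 proteasome subunits (interval 0 to 7.55%) and none of 78 oxidative phosphorylation subunits (interval 0 to 4.62%). The mitochondrial one was Mrpl33, where 37 codons with a score of 800 ran 107 bases past the start of a 65-codon main ORF, 72 of them in its exons. Upstream ORFs were listed in 1 cytosolic ribosomal protein gene, 8 mitochondrial ones, 0 proteasome subunits and 2 oxidative phosphorylation subunits. Low counts in the cytosolic ribosomal, proteasome and oxidative phosphorylation groups are thus not particular to overlapping ORFs. Of 62 translation initiation and elongation factors, Eif5 was the only one with a member. Among the gene families taken by symbol, members occurred in 12 of 165 solute carriers (7.27%, interval 3.81 to 12.4), 11 of 220 Zfp genes (5%) and 5 of 89 TRIM and RNF ubiquitin ligases (5.62%). They occurred in 4 of 41 USP deubiquitinases (9.76%, interval 2.72 to 23.1) and 1 of 48 DEAD and DEAH box helicases (2.08%, interval 0.0527 to 11.1). The solute carrier ORFs ran from Slc35a3 with 9 codons to Slc27a4, a fatty acid transporter, with 152 codons and an overlap of 326 bases. Of 49 Rab-named genes 3 had members, of which Rab12 and Rab31 are GTPases and Rab3il1 is a binding protein that the symbol pattern took in. Neither group of markers of other cell types, with 25 and 8 listed genes, had a member.

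**Figure D5:**
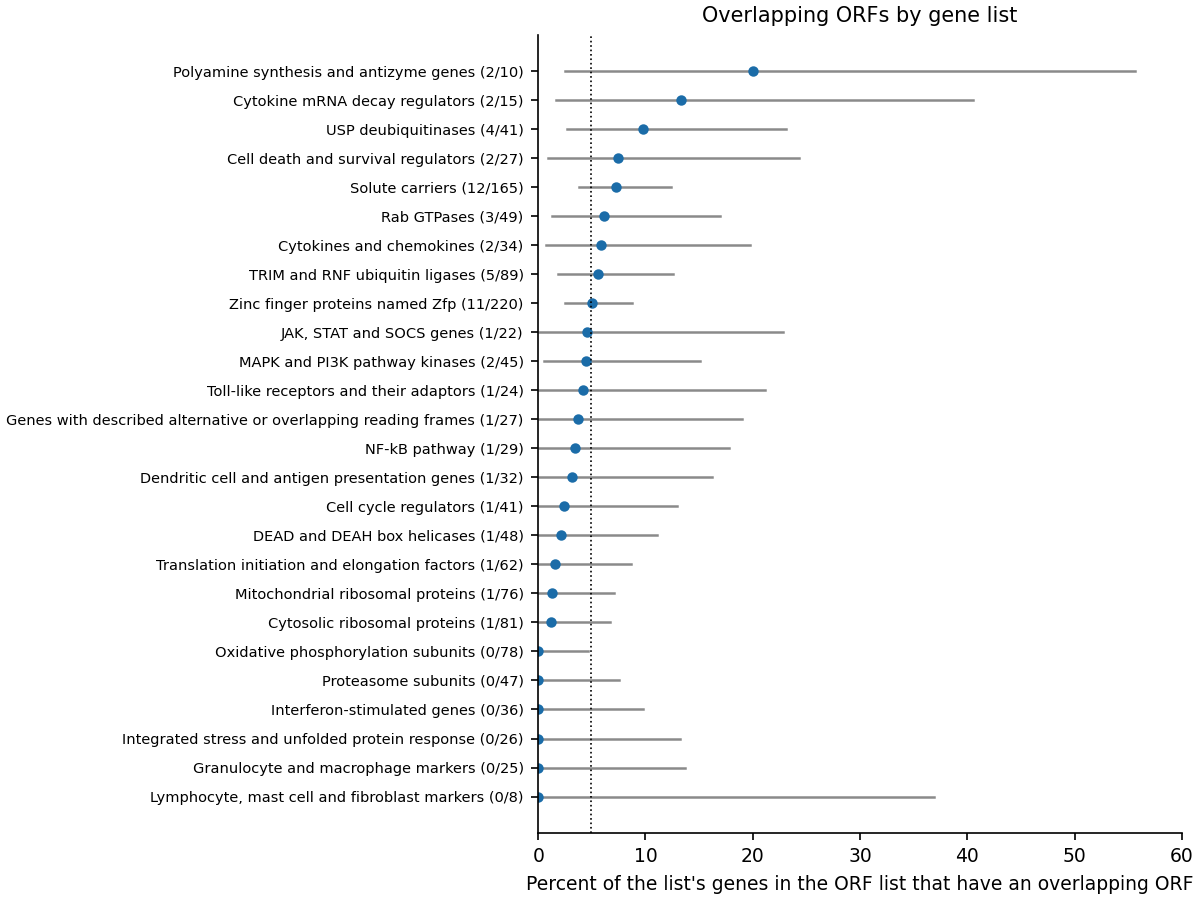
Percent of listed genes with an overlapping ORF (points, x axis) in 26 gene groups, with 95% Clopper-Pearson intervals as lines and counts after each name. The dotted line marks 4.95% of all named genes, and it lies inside every interval but that of the oxidative phosphorylation subunits, which ends at 4.62%.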

How the data were processed

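Footprints of 37 libraries in 28 groups gave 1 deposited ORF list. Per the submitters' processing notes, Bowtie2, TopHat and the mm9 build were used, without stated versions. Which ORF caller and transcript models the authors used is not given in the sources used here. Each ORF has exon blocks, coding span and a score that the authors assigned. Codons exclude the stop. Families were matched to symbols of a RefSeq table (GRCm38.p6), used for names only: 9446 of 10418 by symbol, 127 after dropping a suffix, 659 by an older name and 186 not. Overlaps were counted along the member's own transcript with Python 3.11.15, and the rule was tested on simulated families whose ORFs shared the same exons. That test did not cover members on exon blocks unlike those of the main ORF. Intervals (SciPy 1.17.1, 95%) cover counting error only. The members, the 26 gene lists and the settings were chosen with earlier results of these data known. Genes were named by rule: the 12 highest scores, 10 longest, 10 longest overlaps, 5 best scores at 1 and at 4 bases, 10 families with most members, up to 6 genes of each list and Zc3h12a, Ccl5, Rps12, Syk and Polg. The Prrc2 genes, Nras, Nlrp3, Akr1a1, Stk16, Sft2d1 and TCONS_00040445 in the report and the genes of the closing observations other than G530011O06Rik are outside it and were chosen after their values were seen. No sequence was printed, since no genome of the mm9 build was used here.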

Additional observations from a re-analysis of the deposited data

How the results depend on the processing

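No paired analysis was possible because the list carries no value per library, which also means that no replicate could be left out. Of 93 recomputed values, 66 stayed within the interval of the reported value (or, for the number of ORFs, within 1.5 times it) and 27 moved. Some moves follow from the setting itself. A minimum leaves fewer ORFs and raises the median of the measure it cuts on, and keeping the best scorer raises scores. The cause of the other moves was not tested. Each minimum of score or codons was applied to the whole list before main ORFs were picked. A minimum score of 700 gave 323 overlapping ORFs in 3.02% of families, of which 303 were among the 650. Their median score was 833, and 34.1% scored above their main ORF. A minimum of 900 gave 55 ORFs in 0.752% of families, of which 52 were among the 650. They had medians of 30 codons and a score of 945, with 32.7% above their main ORF and 43.6% in the first frame. A minimum of 10 codons left 16.7% with overlaps of at most 10 bases. A minimum of 30 codons left 405 ORFs in 3.26% of families, with medians of 58 codons and 86 bases of overlap and 8.64% at 10 bases or less. With the highest-scoring ORF of a family as the main ORF, 702 ORFs overlapped it, of which 408 were among the 650, with medians of 59 codons, a score of 693 and 93 bases. Then 45.9% lay in the first frame, 15.1% overlapped by at most 10 bases and, by construction, 0% scored above their main ORF. Keeping only the best-scoring ORF of each stop codon gave a median score of 773. Keeping only the best-scoring one of each family gave 777, with 32.2% above their main ORF. Both settings raise the scores by construction. Of 2 alternatives chosen after seeing the data, the best-scoring start of the same stop as main start gave 24.4% above it, and a leader of at most 1000 bases gave 4.5% of families. Restriction to main ORFs of the length of the RefSeq protein was not run, as no protein table was used here. Depth per library is unknown, so no limit from depth can be given.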

Other observations

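Families that are not protein coding in the naming table also held overlapping ORFs. Of the 522 families, 494 were protein coding, 5 were long noncoding RNAs, 3 were transcribed pseudogenes and 18 had no matched symbol. In the long noncoding RNA G530011O06Rik, 3 ORFs ran over the start of a 102-codon ORF with a score of 929, on a transcript with a leader of 30161 bases. They had 29, 21 and 16 codons and scored 943, 929 and 758. In AU022793, 18 codons with a score of 963 overlapped a 117-codon ORF with a score of 526 by 41 bases. Main ORFs under 100 codons underlay 33 members (5.08%), so that both frames of those families were short. Examples are Tmem167, with 44 codons and a score of 966 over a 72-codon main ORF with a score of 991, and Cd52, a small surface glycoprotein of leukocytes, with 42 codons and a score of 684 over 74 codons with 991.

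Among further genes, noted after their values were seen, was Atg4a, a protease of the pathway, with 53 codons, a score of 952 and an overlap of 148 bases. Atg5, of the conjugation system, had 11 codons, a score of 918 and an overlap of 11 bases. The GTPase Hras had 74 codons with a score of 940 against 952 for its 189-codon main ORF, overlapping by 98 bases in the second frame, where Nras overlapped by 4 in the first. Il10ra, a receptor subunit of interleukin 10, had starts of 40 and 38 codons with a common stop and scores of 952 and 557. Tank and Tbkbp1, both adaptors of the kinase TBK1, each had 1 member. That of Tank had 42 codons and scored 946 against 951 for its main ORF, and that of Tbkbp1 had 29 codons and scored 985 against 725.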
